A study of Sus scrofa with 8 samples.

Results

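The translation initiation and elongation factors of the pig oviduct were read from 71 probe sets carrying 41 gene symbols, out of 24123 probe sets on the array and 10140 with a single symbol. Members were chosen by name alone, as the probe sets whose symbol begins with EIF1 to EIF6 or EEF1 to EEF2, together with EF1ALPHA, an older name of eEF1A, and PABPC1, the cytoplasmic poly(A)-binding protein; EIF1AX, EIF1AY and EIF2AK2 were left out. Of these 71 probe sets, 68 entered the tests and 3 belong to the array's own eEF1A controls. A mean signal above the median of all probe sets was found for 58 of the 68.

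Each of 4 weaned Landrace × Large White crossbred sows, all before ovulation, received flow-sorted X-spermatozoa in one oviduct and Y-spermatozoa in the other by laparoscopy, and cells scraped from each oviduct were taken 24 h later. This gave 4 arrays with X-spermatozoa (X1 to X4) and 4 with Y-spermatozoa (Y1 to Y4). The number is that of the biological replicate and was taken to name the sow. Semen came from several boars, and no oviduct without spermatozoa was among the 8 arrays. The comparison asks whether transcript levels in the oviduct lining differ with the type of spermatozoa present.

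Protein synthesis starts when eIF2 brings the initiator tRNA to the small ribosomal subunit, while eIF4 factors bind the cap of the mRNA and eIF3 joins the subunit to it. After the start codon is found and the large subunit joins, eEF1A delivers each aminoacyl-tRNA and eIF5A helps the ribosome past difficult peptide bonds. In a secretory lining such as the oviduct, where much protein is exported into the fluid, these factors are abundant household transcripts.

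After quantile normalisation, no translation factor probe set passed the limma test between oviducts with Y- and X-spermatozoa when all 8 arrays were used; eEF1A, whose comparison changed with the scaling, is described with the elongation factors. With limma, 0 of 68 had an unadjusted p under 0.05, against 3.56% of all 23999 probe sets tested, and 0 passed after Benjamini-Hochberg adjustment, against 0% of all. With the sow as a block, again 0 of 68 passed unadjusted, against 5.09% of all. Among the 58 brighter members, 0 passed when only brighter probe sets were tested, against 2.59% of those. Without the block and over all probe sets, the smallest unadjusted p of a member was 0.124, for EIF2B3, the gamma subunit of the exchange factor eIF2B.

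The measured differences were small and, for most members, closely bounded. The median log2 difference (Y minus X, quantile-normalised signals) was 0.06 for the members and 0.00 for all probe sets, with 47 members above 0 and 21 below (69.1% above 0, against 50.75% of all). The adjusted p was 1.0 for each member (limma). Differences ran from -0.21 for EIF4E, which binds the mRNA cap, to 0.52 for a dim probe set of EIF5B, which joins the ribosomal subunits. The median size of a difference regardless of sign was 0.07 for the members and 0.14 for all probe sets, and the median standard error was 0.14 against 0.22. The 95% interval lay within a 1.5-fold change either way for 53 of the 68 members (77.9%), against 42.2% of all probe sets, and within a 2-fold change for 64. Brighter probe sets have narrower intervals, so the closer match is the brighter group, in which the interval lay within 1.5-fold for 84.5% of members and 71.1% of all. In all 4 sows, 10 of 68 members were higher with Y-spermatozoa, against 6.44% of all probe sets, and 0 were lower, against 6.71% of all.

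**Figure D1:**
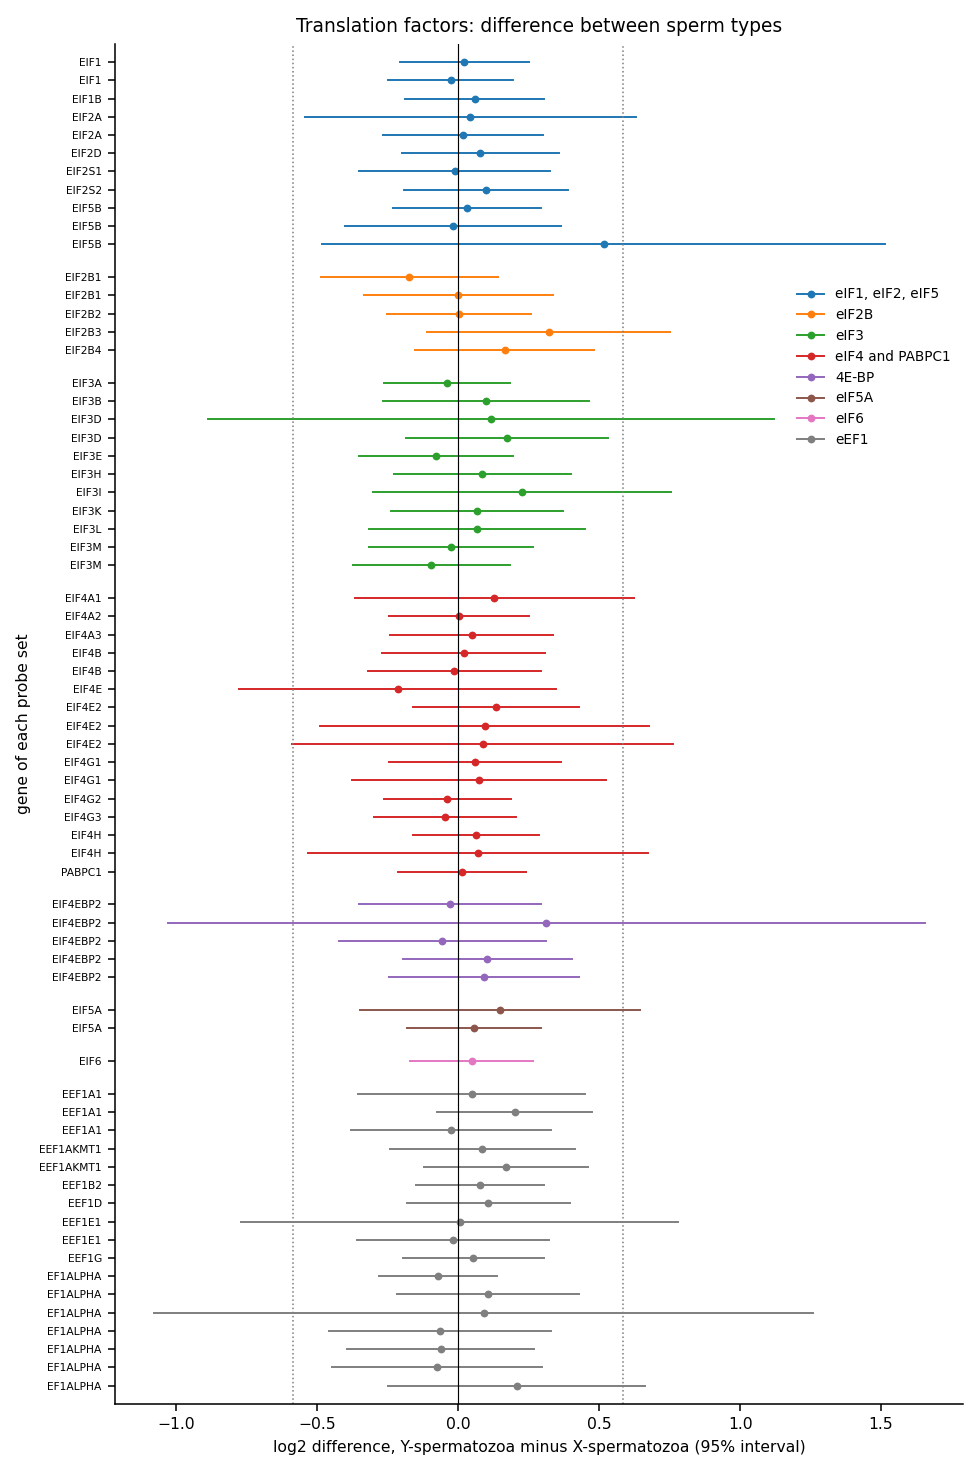
Difference of each of the 68 translation factor probe sets between oviducts with Y- and X-spermatozoa, as the log2 difference of quantile-normalised signals (horizontal axis, point) with its 95% interval (line, limma), listed by gene and coloured by role. Dotted lines mark a 1.5-fold change. Every interval crosses 0, and 53 lie between the dotted lines.

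The factors that choose the start codon and carry the initiator tRNA were grouped with EIF5B, which joins the ribosomal subunits, and with EIF2A and EIF2D. This group was measured by 11 probe sets of 7 genes, none of which passed the test, with a median log2 difference of 0.03. EIF2S1 encodes the alpha subunit of eIF2, whose phosphorylation slows initiation under stress. Its signals were 259.4, 300.8, 256.4 and 252.6 on X1 to X4 and 218.4, 309.9, 245.1 and 299.8 on Y1 to Y4. The Y arrays spanned the whole X range and more, and the log2 difference was -0.01 ± 0.15 (SE, n = 4 and 4, limma, 95% interval -0.35 to 0.33). EIF2S2, the beta subunit, and EIF1 and EIF1B, which guard the accuracy of start codon choice, had differences of 0.10 for EIF2S2, 0.02 and -0.03 for the probe sets of EIF1, and 0.06 for EIF1B. The smallest p of this role group belonged to the dimmest of 3 EIF5B probe sets, with signals of 2.9, 5.1, 9.1 and 6.9 with X- and 6.7, 8.5, 4.2 and 11.9 with Y-spermatozoa. These values overlap and exceeded the background, taken as the 95th percentile of the reporter probe sets, on only 1 of 8 arrays, so its difference of 0.52 ± 0.43 is one between signals near background. The brightest EIF5B probe set gave 0.03 ± 0.11.

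The guanine nucleotide exchange factor eIF2B, which recharges eIF2 for another round, was measured by 5 probe sets of 4 genes with a median difference of 0.00. EIF2B3 read 57.7, 74.4, 61.4 and 49.5 with X-spermatozoa and 84.1, 74.1, 85.9 and 56.1 with Y-spermatozoa. The Y array was the higher in sows 1, 3 and 4 and nearly equal to the X array in sow 2, and the groups overlapped. The log2 difference was 0.32 ± 0.18 (95% interval -0.11 to 0.75), and leaving out single arrays or sows gave 0.23 (without X4) to 0.46 (without Y4, the only one of these with an unadjusted p under 0.05 in limma). Adding the mean of the hybridisation controls to the fit as a covariate gave 0.09. These means were 9.65 to 9.81 on X and 9.81 to 10.06 on Y arrays (log2). The fit thus separated them poorly from sperm type. EIF2B4 had a difference of 0.16, EIF2B2 of 0.00, and the probe sets of EIF2B1 had -0.17 and 0.00. The subunits thus did not share a direction.

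The eIF3 complex, the largest initiation factor and the bridge between the small subunit and the cap-bound mRNA, was measured by 11 probe sets of 9 subunit genes. Their median difference was 0.06, with 7 above and 4 below 0 and no call. EIF3D, a subunit that can itself contact the cap of some mRNAs, had the smallest p of the group. The brighter of its probe sets read 263.4, 327.9, 269.7 and 238.2 on X1 to X4 and 306.3, 379.5, 275.5 and 277.0 on Y1 to Y4. Signals were higher with Y-spermatozoa in each sow but the groups overlapped, and the difference was 0.17 ± 0.15 (95% interval -0.19 to 0.53). The largest difference of the complex was 0.23 for EIF3I and the lowest -0.10 for a probe set of EIF3M.

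The eIF4 factors, which recognise the cap, unwind the leader of the mRNA and tie it to the poly(A) tail, were the largest initiation group with 16 probe sets of 11 genes. The median difference was 0.05 and no probe set passed. EIF4E, the cap-binding subunit, read 58.8, 51.5, 49.4 and 54.1 with X-spermatozoa and 29.6, 62.3, 39.4 and 56.8 with Y-spermatozoa. The X arrays lay close together and the Y arrays were spread on both sides of them, with Y1 the lowest, and the difference was -0.21 ± 0.24 (95% interval -0.78 to 0.35). PABPC1, which binds the poly(A) tail and the scaffold eIF4G, read 1971.5, 2251.2, 2138.5 and 1943.0 with X- and 1900.7, 2595.0, 1984.3 and 2411.9 with Y-spermatozoa. Here too the Y arrays enclosed the X arrays, and the difference was 0.01 ± 0.10 (95% interval -0.21 to 0.24).

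EIF4E2, a cap-binding relative of EIF4E that represses translation, had the smallest p of the eIF4 group, in the second of its 3 probe sets by brightness. It read 27.7, 30.9, 33.8 and 31.8 with X- and 30.8, 36.4, 29.1 and 36.9 with Y-spermatozoa. The groups overlapped and the difference was 0.13 ± 0.13 (95% interval -0.16 to 0.43). The scaffold genes EIF4G1, EIF4G2 and EIF4G3 lay between -0.05 and 0.07, and the helicase genes EIF4A1, EIF4A2 and EIF4A3 between 0.00 and 0.13. The 2 probe sets of EIF4B, a partner of the helicase, gave 0.02 and -0.01.

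EIF4EBP2, a repressor that holds EIF4E away from the scaffold until mTOR phosphorylates it, was read by 5 probe sets that disagreed in sign, 3 above and 2 below 0, with a median of 0.09. The probe set with the smallest p gave 55.8, 52.0, 51.0 and 46.7 with X- and 54.4, 61.3, 45.8 and 56.4 with Y-spermatozoa, overlapping groups with a difference of 0.10 ± 0.13 (95% interval -0.20 to 0.40). EIF6, which keeps the large ribosomal subunit apart from the small one, read 193.0, 181.8, 201.5 and 199.1 with X- and 194.4, 212.1, 199.9 and 197.4 with Y-spermatozoa. The groups overlapped, with a difference of 0.05 ± 0.09 (95% interval -0.17 to 0.27).

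EIF5A, the factor carrying the modified lysine hypusine, had a pair of probe sets that were both slightly higher with Y-spermatozoa without passing the test. The brighter read 583.7, 659.5, 593.5 and 610.6 with X- and 578.2, 704.6, 653.6 and 664.0 with Y-spermatozoa, with a difference of 0.06 ± 0.10 (95% interval -0.18 to 0.29). The dimmer read 147.6, 205.2, 171.7 and 218.1 with X- and 152.4, 243.2, 182.4 and 252.0 with Y-spermatozoa. In it the Y array was above the X array in every sow, but sows differed more than sperm types, and the difference was 0.15 ± 0.21 (95% interval -0.35 to 0.65).

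The eEF1 complex of elongation was measured by 17 tested probe sets of 7 symbols, with a median difference of 0.05 and no call. EEF1B2, EEF1D and EEF1G, the subunits of the exchange factor that reloads eEF1A with GTP, had differences of 0.08 for EEF1B2, 0.11 for EEF1D and 0.05 for EEF1G. EEF1AKMT1, a methyltransferase of eEF1A and not an elongation factor itself, had 0.08 and 0.17 in its probe sets. The brightest tested probe set of EEF1A1, whose name ends in s_at, had the smallest p of the group, with 129.8, 116.1, 108.3 and 98.6 on X1 to X4 and 125.6, 136.5, 121.8 and 129.5 on Y1 to Y4. The groups overlapped through X1, and the difference was 0.20 ± 0.12 (95% interval -0.08 to 0.48). The next, with a name in a_at, read 55.6, 66.9, 47.8 and 48.2 with X- and 60.1, 51.7, 45.0 and 65.5 with Y-spermatozoa, a difference of 0.05 ± 0.17 (95% interval -0.35 to 0.45). Probe sets ending in s_at, x_at or a_at can bind more than 1 transcript, which matters for a family with many near-identical copies such as eEF1A.

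For the brightest eEF1A probe sets, the difference between sperm types depended on the scaling between arrays. Of the 68 members, 12 changed sign among quantile normalisation, the deposited scaling and median centring, and apart from the brightest EF1ALPHA probe set the other 11 stayed within 0.079 of 0 in each. The brightest EF1ALPHA probe set had deposited signals of 6868.5, 7787.0, 7495.2 and 6467.7 with X- and 8257.2, 8316.9, 8076.0 and 8251.0 with Y-spermatozoa. All Y arrays lay above all X arrays, and the Y arrays lay much closer together than the X arrays. On the deposited scale the log2 difference was 0.20, with each array centred on its median it was 0.24 ± 0.10, and after quantile normalisation it was -0.07 ± 0.09 (limma, adjusted p = 1.0 with median centring and after quantile normalisation). Median centring made this the 1 member of 68 with an unadjusted p under 0.05, against 3.66% of all probe sets, and with the sow as a block as well it no longer passed. The direction for this probe set therefore depended on the scaling.

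The array's own eEF1A controls, which bind the 5′ end, the middle and the 3′ end of the transcript, went the same way on the deposited scale. The 3′ control read 6514.5, 7152.7, 7167.4 and 6445.2 with X- and 7855.8, 7884.6, 7860.0 and 7606.0 with Y-spermatozoa, again with no overlap (exact permutation test of log2 signals, two-sided, p = 0.0286, the smallest that 4 against 4 arrays can give). That test exchanges arrays freely between sows; with exchange only within a sow, the exact permutation p was 0.125, the smallest that 4 pairs can give, and the limma fit on the deposited scale did not pass at an unadjusted p of 0.05. The middle control read 6417.4, 7559.4, 6893.9 and 5992.9 with X- and 7496.4, 8092.5, 8141.6 and 8064.9 with Y-spermatozoa, and the 5′ control 4829.4, 5071.4, 4872.4 and 4805.2 against 4991.5, 6095.7, 5713.7 and 5531.1. In both, the lowest Y array fell below the highest X array (exact permutation p = 0.0571 each). These controls and the brightest EF1ALPHA probe set were designed from the same transcript sequence, so they are not separate evidence. After quantile normalisation the 3′, middle and 5′ controls had differences of -0.07, 0.01 and 0.00.

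**Figure D2:**
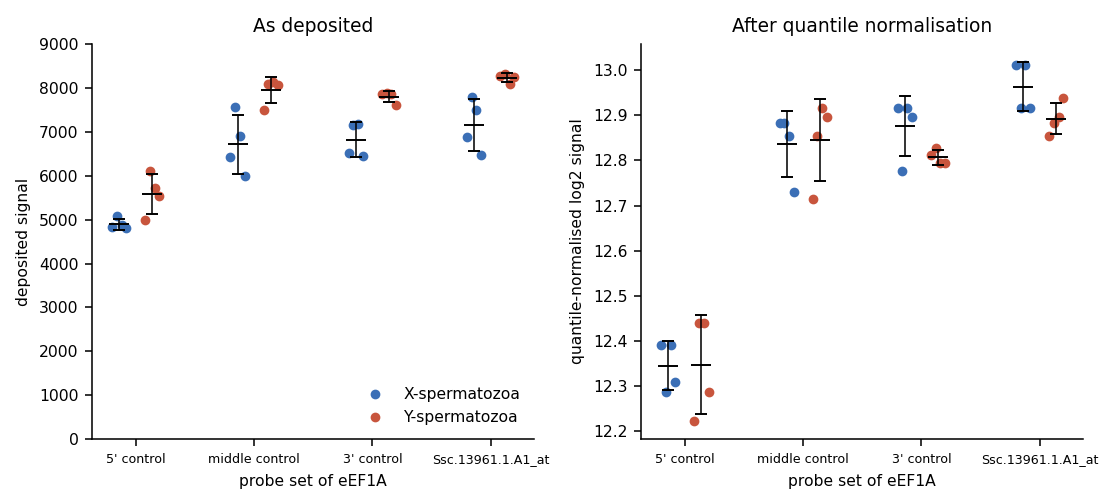
Signals of 4 probe sets designed from one eEF1A transcript on each array, as deposited (left, linear scale from 0) and after quantile normalisation (right, log2 scale, axis not from 0), with X-spermatozoa in blue and Y-spermatozoa in red. Bars show the mean ± SD of 4 arrays. On the left the Y arrays of the 3′ control and of the rightmost probe set (EF1ALPHA) all lie above the X arrays, and on the right the groups overlap for every probe set.

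The same shift was present across bright probe sets of the array as a whole. Of the 100 probe sets with the highest mean signal, 98 were higher with Y-spermatozoa on the deposited scale (median log2 difference 0.15), 98 with median centring (0.18) and 51 after quantile normalisation (0.00). The brightest signal of an array, with the AFFX controls included here but not among the 100, was between 8042 and 9816 on X arrays. On Y arrays it was between 10118 and 11789. Of the 68 tested members, 2 had deposited signals that did not overlap and were higher with Y-spermatozoa, against 0.7% of all probe sets, and 0 were lower without overlap, against 1.6% of all. The other was EIF4A2, the RNA helicase of the cap complex, named after its values were seen, with 3565.9, 3771.3, 3883.1 and 3750.4 against 4057.1, 3926.7, 3918.5 and 4150.5. After quantile normalisation its difference was 0.00 ± 0.11. The hybridisation controls added to each sample had mean quantile-normalised log2 signals of 9.65 to 9.81 on X and 9.81 to 10.06 on Y arrays. Their part in the shift of the deposited signals was not tested.

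Among the arrays of Y-spermatozoa, translation factor signals tended to be high or low on the same arrays. Of the 4 Y arrays, Y2 was the one where 32 of the 68 members had their highest normalised signal, followed by Y4 with 19, Y1 with 10 and Y3 with 7. Over all probe sets the highest fell on Y2 for 24.4%, Y4 for 22.8%, Y1 for 27.9% and Y3 for 24.9%. Among the X arrays it fell on X1 to X4 for 21, 23, 13 and 11 members, against 26.05%, 25.0%, 25.0% and 24.0% of all. The lowest signal fell on Y1 for 29 members and on Y3 for 22, while Y1 was the lowest for 28.3% of all probe sets. The median deviation of the members from their group mean was -0.10, 0.10, -0.06 and 0.04 on Y1 to Y4, and 0.02, 0.05, -0.01 and -0.03 on X1 to X4 (log2). The eIF3 subunits spread most among the groups of more than 5 probe sets, with median deviations of -0.13, 0.22, -0.09 and 0.08 on Y1 to Y4. The median difference of the members between sperm types was 0.055 with all arrays. It was 0.077 without Y1, 0.015 without Y2, 0.067 without Y3 and 0.030 without Y4.

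**Figure D3:**
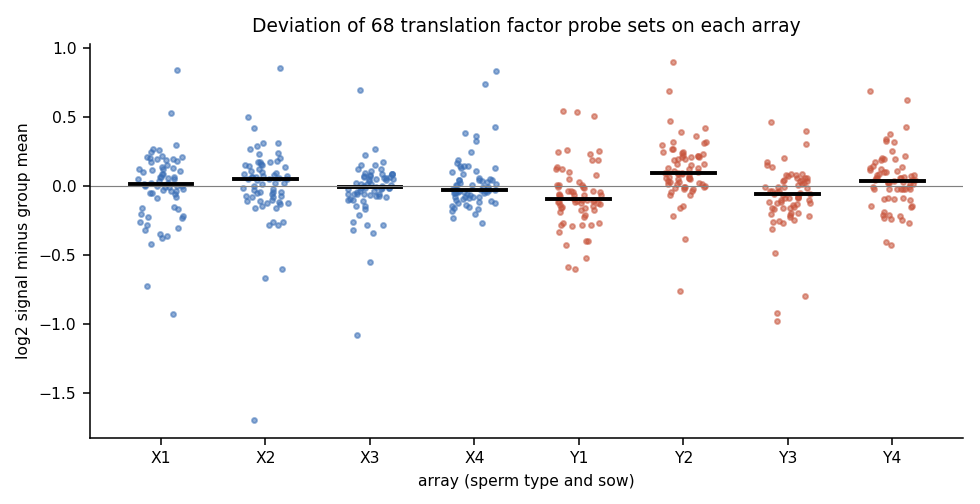
Deviation of the 68 tested translation factor probe sets (points) from the mean of their own sperm type on each array, in log2 units of quantile-normalised signal, with X arrays in blue and Y arrays in red and a black bar at the median. The medians run from -0.10 on Y1 to 0.10 on Y2, a wider range than on the X arrays.

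RNA measures differed among the same arrays. The ratio of the 5′ to the 3′ signal of the eEF1A control was 0.635, 0.773, 0.727 and 0.727 on Y1 to Y4. On X1 to X4 it was 0.741, 0.709, 0.680 and 0.746. It was lowest on Y1 and highest on Y2, as was the median deviation of the members. The X arrays did not follow this order: X4 had their highest ratio and lowest member median (-0.03), and X2 had their highest median (0.05). Y3 and Y4 had equal ratios, with member medians of -0.06 and 0.04. The ratio of the GAPDH control was 0.167 on Y1 and between 0.218 and 0.261 on the others. Between sperm types the eEF1A ratio did not separate (exact permutation test, two-sided, p = 0.971). Epithelial markers were above background on all 8 arrays for 5 of 5 genes, and OVGP1, the oviduct secretory glycoprotein, read 5841 to 9315. Smooth muscle markers summed to 1387 to 3947 on X and 930 to 3144 on Y arrays, and stroma markers to 3160 to 4405 and 2668 to 5329. Leukocyte markers summed to 58.0 to 72.2 and 53.0 to 80.1. Of the sperm genes PRM1 and ODF1 exceeded background on 0 arrays, PRM2 on 6 and TNP2 on 7. Their sums were 26.9 to 39.8 on X and 23.5 to 37.5 on Y arrays. Of the oocyte genes, GDF9 exceeded background on 8 arrays, ZP3 on 5 and ZP2 on 4. The leukocyte marker PTPRC and PRM1 were higher with Y-spermatozoa (limma, unadjusted p = 0.017 and 0.00096). PTPRC exceeded background on only 2 arrays. The part of these measures in the array-to-array pattern was not tested, and in such bulk samples fewer cells of a type and less RNA per cell cannot be told apart.

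A few members had signals that followed the sow in both of its oviducts. In a limma F test of the sow, with sperm type in the fit and the 2 oviducts of a sow as its replicates, 6 of 68 members had an unadjusted p under 0.05, against 14.2% of all probe sets, and 0 passed adjustment, against 0% of all. The smallest p belonged to the second EF1ALPHA probe set by brightness, with a name in x_at, which read 1789.9, 1110.2, 623.3 and 2290.6 with X- and 1942.0, 1305.2, 755.8 and 2423.6 with Y-spermatozoa. Both oviducts of sow 4 were the highest and both of sow 3 the lowest, and the sow means differed by 3.42-fold, while sperm types differed by 0.09 ± 0.50 on the log2 scale. The F test gave an adjusted p of 0.146 in limma. The adjusted p was 0.00604 with a pseudocount of 16, where 1.73% of all probe sets passed, 0.00236 among brighter probe sets, where 7.46% passed, and 0.0492 without the term for sperm type, where 0.3% passed. The brightest EF1ALPHA probe set did not follow this order, with sow means 1.09-fold apart.

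The next probe sets by p belonged to factors with different roles. The dimmer probe set of EIF4H, a helper of the eIF4A helicase, read 112.5, 133.4, 70.0 and 96.7 with X- and 126.5, 129.6, 75.5 and 97.1 with Y-spermatozoa. Sow 3 was the lowest and sow 2 the highest in both oviducts, with sow means 1.81-fold apart (limma F test, adjusted p = 0.215). In the other EIF4H probe set the sow means differed by 1.06-fold. The brighter probe set of EEF1E1, which belongs to the complex of tRNA synthetases, read 74.2, 129.9, 90.2 and 83.5 with X- and 61.3, 171.6, 79.6 and 85.8 with Y-spermatozoa. Sow 2 stood above the others on both sides, and the sow means were 2.23-fold apart (adjusted p = 0.274, limma). In the dimmer EEF1E1 probe set the sow means differed by 1.23-fold.

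The dimmer EIF5A probe set, with its values above, was higher in sows 2 and 4 than in sows 1 and 3 on both sides, with sow means 1.57-fold apart (adjusted p = 0.273, limma). In the brighter EIF5A probe set the sow means differed by 1.17-fold. The brightest EIF4E2 probe set read 40.4, 23.5, 36.4 and 47.5 with X- and 36.0, 27.8, 40.2 and 47.1 with Y-spermatozoa, lowest in sow 2 and highest in sow 4 on both sides (adjusted p = 0.292, limma). The sixth was another EF1ALPHA probe set, the next by brightness and named after its values were seen, with sow means 1.44-fold apart. When only brighter probe sets were tested, 4 of 58 members passed adjustment, those of EF1ALPHA, EIF4H, EEF1E1 and EIF5A named above. This share is near the 7.46% of all brighter probe sets that passed. In the unadjusted count over all probe sets, 8.82% of members were called, against 14.2% of all.

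**Figure D4:**
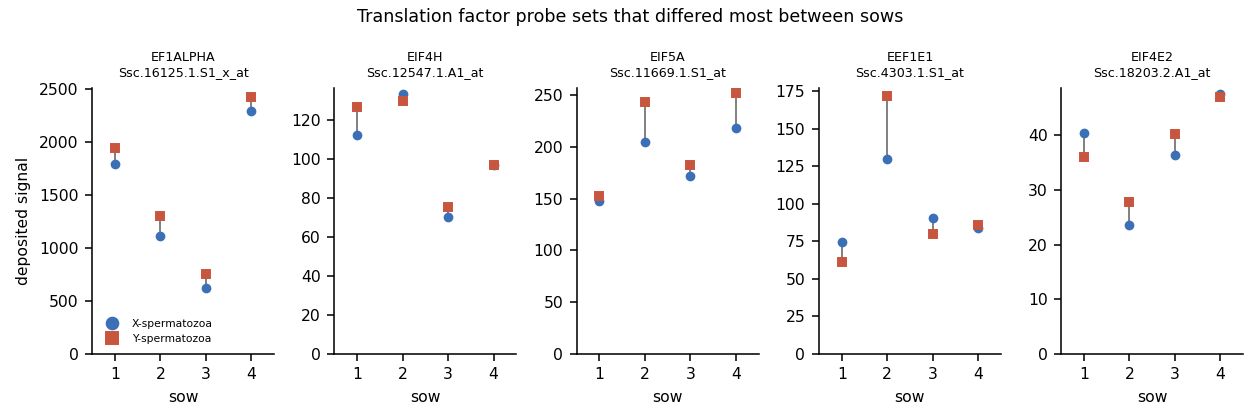
Deposited signals (linear scale from 0) of the 5 translation factor probe sets with the smallest p between sows, for each sow, with X-spermatozoa as blue circles and Y-spermatozoa as red squares joined by a line. For EF1ALPHA the sow means are 3.42-fold apart, with sow 4 the highest and sow 3 the lowest on both sides.

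Genes that act beside these factors gave few calls. Of 10 probe sets of termination, recycling and poly(A) partner genes, 1 rose at an unadjusted p under 0.05 and 0 fell. It was a probe set of PABPN1, the nuclear poly(A)-binding protein, with 118.2, 109.7, 118.4 and 124.1 with X- and 135.5, 138.4, 139.0 and 145.6 with Y-spermatozoa. All Y arrays were above all X arrays, the difference was 0.26 ± 0.10 (limma, adjusted p = 1.0), and another, brighter PABPN1 probe set gave 0.09 ± 0.10. Of 29 probe sets of aminoacyl-tRNA synthetases, 0 rose and 1 fell, that of DARS, the aspartyl enzyme, from 40.1 ± 4.74 to 29.9 ± 3.39 (SD, n = 4 each, log2 difference -0.38, limma, adjusted p = 1.0). With the sow as a block the list had 2 calls, DARS and a probe set of HARS, the histidyl enzyme, which read 4.2, 11.0, 9.6 and 11.3 with X- and 9.1, 18.9, 18.4 and 13.8 with Y-spermatozoa, higher with Y-spermatozoa in 4 of 4 sows and near background.

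Of 16 probe sets of the integrated stress response, 0 rose and 1 fell, a probe set of PPP1R15B, which helps remove the phosphate from eIF2. Its signals were 1.8, 7.9, 3.2 and 3.1 against 1.1, 0.7, 1.3 and 1.5, below background on each array. Another dim PPP1R15B probe set went the other way, with a difference of 0.392 ± 0.285. The next gene by p was IMPACT, with mean signals of 111.9 with X- and 86.8 with Y-spermatozoa. Its difference was -0.339 ± 0.165 (limma, unadjusted p = 0.075), without passing the test. DDIT3, a stress-induced transcription factor, had a difference of 0.13 ± 0.13. The 14 probe sets of mTOR and MNK control, the 7 of helicases and scanning and the 7 of mitochondrial translation factors gave 0 calls in either direction, with median differences of 0.06, -0.03 and 0.07. The counts without the block stand beside the 3.56% of all probe sets called without adjustment. With the sow as a block, the synthetases had 2 calls, the termination and partner genes 1 and the stress response 1. The remaining lists had 0, and 5.09% of all probe sets were called in that fit.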

How the data were processed

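RNA of cells scraped from 8 oviducts of 4 sows was hybridised to the Affymetrix Porcine array, and the samples were grouped by their labels. The authors deposited an intensity on a linear scale for each probe set, computed in MAS5 (version 5.1, per the submitters' processing notes); every array has the same trimmed mean. The methods describe RMA and limma; probe-level values and detection calls were not used here. The deposited intensities were quantile normalised, raised to at least 1 and converted to log2. AFFX controls (124 probe sets) entered the normalisation but not the tests. Median signals were 38.7 to 41.2 per array, the number of arrays limits the precision, and 23.0 to 28.5% of probe sets lay below the 95th percentile of the 64 reporter probe sets, used here as background.

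Y- and X-spermatozoa were compared with limma 3.58.1 (R 4.3.3; lmFit, eBayes, two-sided, Benjamini-Hochberg over 23999 probe sets) without a block, and sows with limma's F test. The labels number the arrays by biological replicate, and the study used sows as replicates with both oviducts of each. The numbers were therefore taken to name the sow and to pair the arrays, which the labels do not state. Deviations from group means correlated by 0.132 to 0.187 within these pairs. The scripts were tested on simulated data. Permutation tests used scipy 1.17.1 and figures matplotlib 3.10.9 (Python 3.11.15). Symbols came from the platform annotation, in which 13826 probe sets have no symbol; 61 of the 71 member probe sets matched the pig gene table by gene ID, and 9 of the 10 others are named EF1ALPHA.

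Genes given by array were the probe set with the smallest p of each role, up to 3 probe sets of 10 preset genes where the array has them, and the 5 probe sets with the smallest p between sows. Other pathway genes were taken from those with the smallest p of their list. The members, lists and rules were chosen with earlier results of these data known. Alternatives were the sow as a block, 3 other scalings or corrections, a pseudocount of 16, brighter probe sets alone, limma without moderation, and leaving out arrays or sows.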

Additional observations from a re-analysis of the deposited data

Results flagged for a closer look

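In 42 groups of 4 arrays, those of the 21 probe sets described by array, 2 held an array standing apart from the other 3; chance alone does so in about 1 group in 20. The quantile-normalised signal of the 3′ eEF1A control (AFFX-Ssc-ef1a-3_at) on X2 was the lowest of the X arrays (12.78 on the log2 scale against 12.90 to 12.92), with a gap to its nearest neighbour of 0.866 of the group's range; as deposited, X2 and X3 were nearly equal. That of EIF2S1 on X2, at a deposited signal of 300.8 against 252.6 to 259.4 on the other X arrays, had a gap of 0.838 of the range.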

How the results depend on the processing

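No member passed the unadjusted test between sperm types with the deposited scaling, the pseudocount, brighter probe sets alone, limma without moderation or the hybridisation controls as a covariate. Those controls largely followed sperm type, so any fit with them as a covariate separates them from it poorly. The replicate block, which pairs the oviducts of a sow, also gave 0 calls and a median difference of 0.055. Median centring gave 1 call (EF1ALPHA). The block with a sow left out, chosen after the data were seen like the fits that keep the AFFX controls or join the block to another scaling, gave 1 call without sow 2 (EIF2B3) and 1 without sow 3 (EIF5B). Leaving out arrays or sows gave 0 to 1 calls (EIF2B3 without Y4, EIF5B without sow 3, with a difference of 1.01). The median of the members was 0.015 to 0.077 when arrays or sows were left out and 0.150 with the hybridisation controls as a covariate. Between sows, calls numbered 1 with the pseudocount, 4 among brighter probe sets, 1 without the term for sperm type and 0 with any sow left out. For the tested probe sets described by array, without the eEF1A controls, 299 of the recomputed differences kept their direction and side of the threshold. A further 38 changed sign, and 2 passed the threshold without changing sign. Among the 38, the brightest EF1ALPHA probe set with median centring also passed it. The causes were not tested.

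The differences that changed sign had not passed the test as first computed. With the hybridisation controls as a covariate they were -0.077 for EEF1A1 (a_at), -0.048 for EF1ALPHA (x_at), 0.48 for EIF4E and 0.22 for EIF2S1. With the deposited scaling they were 0.20 for the brightest EF1ALPHA probe set and -0.004 for EEF1E1, and with median centring 0.24 for that probe set and 0.028 for EIF2S1. Leaving out arrays or sows moved the differences from -0.023 to 0.056 for PABPC1, -0.089 to 0.17 for EEF1A1 (a_at), -0.11 to 0.23 for the dimmer EIF4H probe set, -0.27 to 0.40 for EF1ALPHA (x_at), -0.11 to 0.24 for the brightest EIF4E2 probe set, -0.009 to 0.071 for EIF6, -0.39 to 0.035 for EIF4E, -0.29 to 0.20 for EEF1E1 and -0.10 to 0.083 for EIF2S1. With 4 arrays a group, differences in probe sets near background were poorly bounded, as in the dimmest EIF5B probe set with an interval of -0.48 to 1.52.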
